A study of Mus musculus with 36 samples.

Results

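The experiment described here is the response of GRL/L mouse embryonic fibroblasts (MEFs) to dexamethasone (Dex), a synthetic glucocorticoid. It comprised the 6 libraries of total RNA labelled GRL/L, out of 36 libraries in all: 3 from MEFs given 1 μM Dex for 5 h and 3 from MEFs given solvent (vehicle). GRL/L cells carry, on both alleles of Nr3c1, an isoleucine-to-alanine substitution in the ligand-binding domain of the glucocorticoid receptor (GR), so that no GRL/L library, vehicle included, has a wild-type receptor. The allele was made by genome editing in zygotes. According to the study's methods the cells were primary fibroblasts from mid-gestation embryos of intercrossed heterozygotes, grown in medium with fetal calf serum. The 3 cultures of each genotype came from different mice. The strain label was FVB/NJ throughout, although the methods give another strain for the parents of GR-/- cells. All GRL/L libraries belonged to run 2 of the 2 runs, together with GRwt/wt replicates 4 to 6, and run 1 held GRwt/wt replicates 1 to 3 and GR-/-, labelled GRko/ko, which lacks a functional receptor. Run 1 also held 12 libraries of the receptor mutants GRD/D and GRD+L/D+L, which entered the filter and the shared estimate of spread but are not described here. GRwt/wt and GR-/- were treated with 1 μM Dex or solvent for 5 h as well and are used only to place the GRL/L response.

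GR is a hormone-activated transcription factor. Without ligand it is held in the cytoplasm by chaperones of the heat shock family. Once a glucocorticoid binds, it moves to the nucleus, where it binds glucocorticoid response elements (GREs) as pairs of receptors and raises the transcription of nearby genes, or lowers genes driven by inflammatory factors such as NF-κB and AP-1. In fibroblasts, glucocorticoids are known for restraining cytokine, prostaglandin and matrix-degrading programmes and for promoting adipocyte differentiation. GR also binds as a single receptor, and mutations that weaken pairing have been used to ask which of these effects need the paired form.

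The GRL/L vehicle libraries held 26925658 to 28662608 counts and the Dex libraries 21532686 to 25962275, against 15280166 to 28662608 over all 36 libraries, so the Dex libraries were the shallower ones. No 2 GRL/L libraries of a group agreed within sampling noise. Mitochondrial genes took 1.78% to 2.1% of the counts. Nr3c1 itself was expressed at 101, 104 and 105 CPM (counts scaled to a common library size) with vehicle in GRL/L, close to the 91.8 to 101 CPM of GRwt/wt in the same run, whereas GR-/- had 15.9 to 18.0 CPM. With Dex, Nr3c1 was at 85.5 to 85.6 CPM in GRL/L, below all 3 vehicle libraries (log2 fold change -0.27 ± 0.06, SE, adjusted p = 0.001). The substitution cannot be read from counts per gene.

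All 12 fibroblast markers examined, among them the collagens Col1a1, Col1a2 and Col3a1, were measured, and their summed level was 37030 to 41200 CPM with vehicle and 32220 to 36360 CPM with Dex. The cultures also held macrophage transcripts: all 20 macrophage markers were measured, none at 0, and summed to 1113 to 1322 CPM with vehicle and 922.5 to 1175 CPM with Dex. In GRwt/wt of run 2 the macrophage sum was lower, 613.4 to 652.3 CPM with vehicle and 582.9 to 655.4 CPM with Dex. Within GRL/L, 6 of the 20 macrophage markers fell and 1 rose at an adjusted p of at most 0.05. Of all genes tested, 9.57% fell and 8.12% rose at that limit. The median log2 fold change of the macrophage markers was -0.24, against -0.01 over all genes tested. Endothelial markers (5 tested, 9.111 to 10.92 CPM in sum), epithelial markers (6 tested, 4.21 to 6.961 CPM) and skeletal muscle markers (5 tested, 12.48 to 14.52 CPM) were low in the GRL/L libraries, and none of the 6 erythroid markers passed the filter for testing. The 8 cartilage markers summed to 120.4 to 123.6 CPM with vehicle and 108.3 to 152.6 CPM with Dex, against 72.83 to 87.76 CPM in GRwt/wt of run 2. The 8 neural markers summed to 101.3 to 103.4 CPM with vehicle and 112.4 to 117.6 CPM with Dex, separate groups. At the adjusted p 3 of them fell and 1 rose, where 9.57% and 8.12% of all genes did. Map2 had the most counts of the 8, 928 to 1210 with vehicle and 1351 to 1597 with Dex, and so weighs most in the sum. The part of these other cell types in the results was not tested. Because these are bulk cultures, fewer cells of a type and less RNA per cell cannot be told apart.

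**Figure D1:**
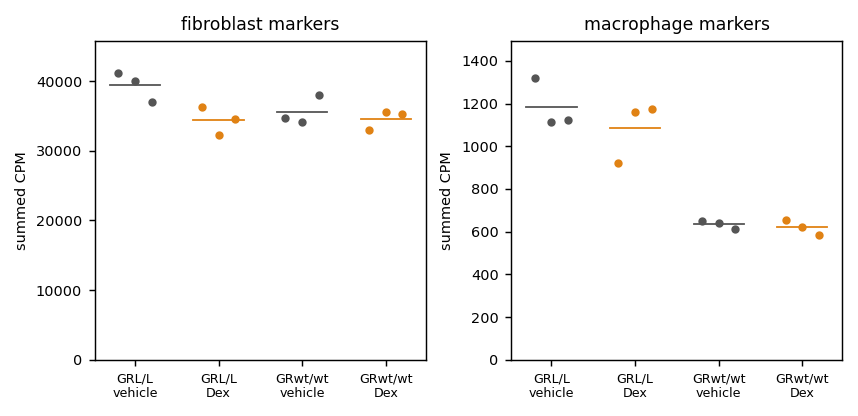
Summed level of 12 fibroblast markers (left) and 20 macrophage markers (right) in CPM, for each library of run 2, with a bar at the mean of 3 libraries. The GRL/L libraries lie between 922.5 and 1322 CPM of macrophage markers and the GRwt/wt libraries between 582.9 and 655.4 CPM.

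Which genes Dex changed in GRL/L MEFs was asked first. A gene was called raised or lowered at an adjusted p of at most 0.05 and a log2 fold change of at least 1 or at most -1, that is a change of at least 2-fold. By this rule 232 genes were raised and 161 lowered, which is 1.5% and 1.04% of the 15489 genes tested. At the adjusted p alone, 1258 genes rose (8.12%) and 1482 fell (9.57%), with a median absolute log2 fold change of 0.39, so that smaller changes outnumbered called genes in both directions. The median log2 fold change was 1.56 for raised and -1.37 for lowered genes, against -0.01 over all genes tested.

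The raised side reached further than the lowered side. Log2 fold changes of at least 2 were found for 69 raised genes and of at most -2 for 19 lowered genes. Beyond 3 there were 25 raised and 5 lowered genes. The 3 Dex libraries lay above the 3 vehicle libraries for 225 of the 232 raised genes and below them for 155 of the 161 lowered genes, whereas among all tested genes the libraries separated in this way for 17.9% upwards and 19.4% downwards. Since the calls come from the same libraries, this describes the calls and adds no test to them. Near the limit, 54 raised genes had a log2 fold change under 1.2 and a further 78 genes that passed the adjusted p lay between 0.8 and 1; on the lowered side 52 genes were above -1.2 and 92 genes lay between -1 and -0.8.

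Many called genes were weakly expressed. A mean of at least 50 counts over the 6 libraries was reached by 129 raised and 57 lowered genes, and the other 207 called genes had a median of 17 counts. Among the 12237 tested genes with at least 50 counts, 1.05% were raised and 0.47% lowered. When at least 10 counts in every one of the 36 libraries were required, 91 genes were raised and 39 lowered. When the fold change itself was tested against the 2-fold limit (glmTreat in edgeR), 90 were raised and 22 lowered.

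**Figure D2:**
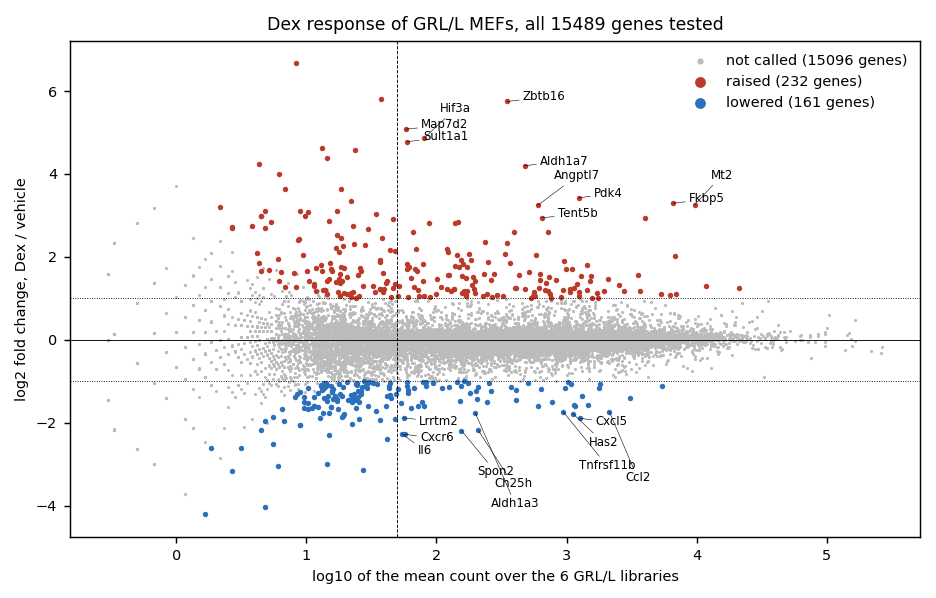
Log2 fold change of Dex against vehicle in GRL/L MEFs (vertical) against the log10 of the mean count over the 6 libraries (horizontal) for the 15489 genes tested. Red and blue points are the 232 raised and 161 lowered genes, dotted lines mark log2 fold changes of 1 and -1, the dashed line marks a mean count of 50, and the 20 genes with the largest changes to its right are labelled.

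The gene raised most among those with at least 50 counts was Zbtb16, which encodes the transcription factor PLZF. It rose from 0.541, 0.538 and 0.363 CPM with vehicle to 23.5, 27.8 and 27.3 CPM with Dex (log2 fold change 5.75 ± 0.20, adjusted p = 3.49e-21). All 3 Dex libraries were thus far above a vehicle level close to the detection limit. Map7d2, a microtubule-associated protein, rose from 0.0633 to 0.198 CPM to 4.10 to 4.45 CPM (log2 fold change 5.08 ± 0.39). Hif3a, an inhibitory member of the hypoxia-inducible factor family, rose from 0.127 to 0.270 CPM to 5.36 to 6.34 CPM (4.87 ± 0.27 on the log2 scale). Sult1a1, a phenol sulfotransferase, rose from 0.127 to 0.198 CPM to 3.84 to 4.85 CPM (log2 fold change 4.78 ± 0.27). These 4 genes had in common that their transcripts were scarce without Dex, so their folds rest on a few vehicle counts.

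Other strongly raised genes had a measurable level before treatment. Aldh1a7, an aldehyde dehydrogenase, rose from 1.76, 1.84 and 1.95 CPM to 32.7, 32.6 and 36.8 CPM (log2 fold change 4.20 ± 0.23). Pdk4, the kinase that switches off pyruvate dehydrogenase, rose from 7.72 to 8.38 CPM to 81.5 to 87.9 CPM (3.42 ± 0.21). Fkbp5, a chaperone partner that lowers the hormone affinity of GR, rose from 47.7, 45.5 and 45.5 CPM to 434, 475 and 452 CPM (3.29 ± 0.16, adjusted p = 6.49e-18). The spread between replicates was small beside these shifts. Mt2, a metallothionein, rose from 65.9 to 71.5 CPM to 649 to 682 CPM (log2 fold change 3.26 ± 0.16). Angptl7, a secreted angiopoietin-like protein, rose from 3.96 to 4.55 CPM to 35.4 to 47.7 CPM (3.24 ± 0.20), and Tent5b, a terminal nucleotidyltransferase, rose from 4.85 to 6.19 CPM to 40.0 to 45.0 CPM (2.94 ± 0.10). Tsc22d3 encodes GILZ, an inhibitor of NF-κB and AP-1, and went from 36.6, 34.9 and 34.0 CPM to 252, 281 and 270 CPM (log2 fold change 2.93 ± 0.21, adjusted p = 2.27e-13).

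Of 29 tested textbook glucocorticoid targets, 17 were raised (58.6%, against 1.5% of all genes) and 1 was lowered (3.45%, against 1.04%). Their median log2 fold change was 1.18. The list was drawn up from genes known to respond, so its direction is no independent evidence. Beside the genes already given, Fam107a, an actin-associated protein, rose from 0 to 0.0676 CPM to 2.27 to 3.18 CPM, with a mean of only 37.5 counts. Smaller changes were found for Sgk1, a kinase that stabilises sodium channels (1.18 ± 0.06), Klf9, a repressor of the Krüppel-like family (1.18 ± 0.05), and Errfi1, an inhibitor of the EGF receptor (1.56 ± 0.14). At the adjusted p alone, 26 of the 29 rose, where 8.12% of all genes did, so that 9 further targets rose below the limit. Among these was Dusp1, the phosphatase that inactivates p38 and JNK, which rose from 13.3, 13.2 and 11.9 CPM to 22.5, 23.3 and 22.4 CPM (0.83 ± 0.15, adjusted p = 8.11e-05). Anxa1, which encodes the anti-inflammatory protein annexin A1, rose from 853 to 898 CPM to 1395 to 1469 CPM (0.70 ± 0.07). Nfkbia, the inhibitor of NF-κB, rose from 30.0 to 32.7 CPM to 50.4 to 56.8 CPM (0.79 ± 0.07). Cdkn1a (0.07) and Gadd45b (0.01) did not pass. The target that went the other way was Angptl4, an inhibitor of lipoprotein lipase, which fell from 24.3, 18.6 and 18.7 CPM to 5.44, 8.47 and 8.55 CPM (-1.46 ± 0.14).

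**Figure D3:**
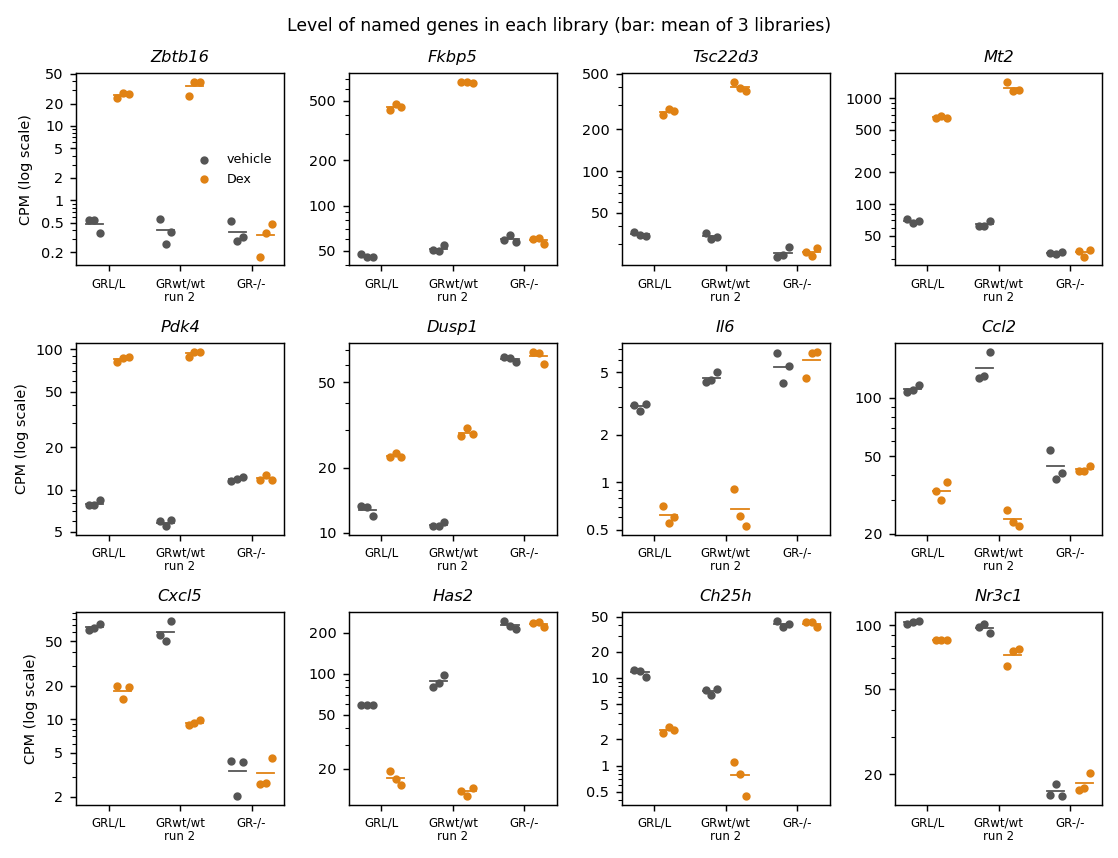
CPM on a log scale of 12 genes in each library of GRL/L, of GRwt/wt in run 2 and of GR-/-, with vehicle in grey and Dex in orange and a bar at the mean of 3 libraries. In GRL/L the groups of all 12 genes are separate, whereas in GR-/- vehicle and Dex libraries lie side by side; Fkbp5 is at 434 to 475 CPM with Dex in GRL/L and at 662 to 669 CPM in GRwt/wt of run 2.

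Promoter sequences were available for part of the called genes and are shown because they let the response be read beside the elements named above. RefSeq windows (build GRCm38.p6, from 250 bases before to 50 after each start of transcription) were found for 161 of the 232 raised genes, 102 of the 161 lowered genes and 11201 of the 15486 tested gene symbols. A GRE core, searched as GNACANNNTGTNC on both strands, was present in a window of 9 raised genes (5.59%), 0 lowered genes and 45 of all tested genes (0.402%). The longer palindrome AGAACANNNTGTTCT occurred in a single tested gene, Sgk1, so that its match overlaps a core match. The simple half-site AGAACA was in 20.5% of raised, 18.6% of lowered and 14.8% of all tested genes with a window. The stretches carry the match in capitals, are written 5′ to 3′ along the gene's strand, and were chosen after the matches were seen, as genes with a known role whose match lies upstream of the start.

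Sgk1 (chr10:21993681-21993735, plus strand): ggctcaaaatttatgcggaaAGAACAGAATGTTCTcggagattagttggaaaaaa
Mt1 (chr8:94178975-94179027, plus strand): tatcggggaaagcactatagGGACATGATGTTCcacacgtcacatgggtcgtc
Trim63 (chr4:134314892-134314944, plus strand): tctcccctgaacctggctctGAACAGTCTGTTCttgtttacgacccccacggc
Slc10a6 (chr5:103629534-103629586, minus strand): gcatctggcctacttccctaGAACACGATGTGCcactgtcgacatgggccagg

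Each of these 4 genes was raised by Dex. Mt1, a metallothionein, rose from 103, 96.4 and 99.8 CPM to 421, 401 and 403 CPM (2.03 ± 0.15). Trim63, which encodes the ubiquitin ligase MuRF1 of muscle protein breakdown, rose from 1.08 to 1.45 CPM to 3.22 to 3.62 CPM (1.50 ± 0.20). Slc10a6, a transporter of sulfated steroids that is named here after its values were seen, rose from 1.08 to 1.52 CPM to 9.20 to 10.0 CPM (2.84 ± 0.19). Most raised genes with a window had no core match in it, and a match in these letters describes a sequence and not a binding site.

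Transcripts of cytokines and chemokines moved mainly downwards. Of the 39 tested, 14 were lowered (35.9%, against 1.04% of all genes tested) and 1 was raised (2.56%, against 1.5%). At the adjusted p alone 22 fell and 2 rose, where 9.57% and 8.12% of all genes did. The median log2 fold change of the list was -0.76, against -0.01 over all genes tested. Il6, a central cytokine of the acute phase, fell from 3.11, 2.85 and 3.14 CPM to 0.708, 0.554 and 0.601 CPM (log2 fold change -2.27 ± 0.21, adjusted p = 2.78e-10). Ccl2, the main chemokine that draws monocytes, fell from 107, 110 and 116 CPM to 33.3, 30.0 and 36.9 CPM (-1.73 ± 0.20). Cxcl5, a chemokine for neutrophils, fell from 63.2, 66.1 and 72.2 CPM to 19.7, 15.1 and 19.4 CPM (-1.89 ± 0.28). No Dex library reached a vehicle level for any of these genes.

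Other lowered chemokines were Cxcl14 (-1.58 ± 0.18), Cxcl1 (-1.42 ± 0.22), Cx3cl1, the ligand of Cx3cr1 (-1.35 ± 0.09), and Ccl7 (-1.05 ± 0.16). Cxcl10, Ccl20, Cxcl2, Cxcl3 and the cytokine Tnf were lowered as well, but from levels of at most 1.52 CPM. The raised member was Il1rn, the secreted antagonist of the interleukin-1 receptor, which rose from 36.8, 38.8 and 37.5 CPM to 76.9, 73.4 and 77.6 CPM (1.01 ± 0.09), just inside the limit. Il11, Ccl11 and Il33, with log2 fold changes of -0.99, -0.99 and -0.97, passed the adjusted p and lay just outside it. Csf1 (-0.12) and Ccl8 (0.12) did not pass. Both chemokine receptors named here fell as well, Cxcr6 from 2.13, 3.73 and 3.60 CPM to 0.708, 0.468 and 0.742 CPM (-2.28 ± 0.29), and Cx3cr1, a marker of macrophages, from 13.4, 11.8 and 11.7 CPM to 3.58, 4.90 and 4.70 CPM (-1.49 ± 0.19).

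Macrophage markers did not move as a group. At the adjusted p, 6 of the 20 fell and 1 rose, where 9.57% and 8.12% of all genes did. C1qb went from 869, 768 and 709 counts to 766, 808 and 1040 counts, in Dex libraries that were shallower. Csf1r, the receptor that maintains macrophages, fell from 40.9 to 46.3 CPM to 28.3 to 37.1 CPM (-0.37 ± 0.10, adjusted p = 0.00883). Cd68 stood at 48.0 to 58.8 CPM with vehicle and at 34.0 to 47.6 CPM with Dex and did not pass (adjusted p = 0.0579). Lyz2 was at 609 to 724 and 506 to 628 CPM, and Mrc1, the mannose receptor, rose from 33.5 to 40.5 CPM to 46.1 to 62.5 CPM (0.63 ± 0.13). With Cx3cr1 (-1.49) included, the macrophage markers ranged from -1.49 to 0.63, and their part in the cytokine result was not tested.

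The NF-κB motif, searched as GGGNNTTTCC on both strands, was found in the promoter windows of 7 of 102 lowered genes (6.86%), 2 of 161 raised genes (1.24%) and 231 of 11201 tested genes (2.06%). Those 7 genes included Ccl20, Cxcl1, Cxcl2, Cxcl3 and Il6. For AP-1, the motif TGANTCA was in a window of 14.7% of lowered, 16.1% of raised and 6.58% of all tested genes. A few of the chemokine and cytokine windows are shown, chosen after the matches were seen, with the NF-κB letters in capitals.

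Cxcl1 (chr5:90891136-90891203, plus strand): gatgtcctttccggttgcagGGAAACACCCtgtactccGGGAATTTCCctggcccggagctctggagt
Cxcl2 (chr5:90903782-90903850, plus strand): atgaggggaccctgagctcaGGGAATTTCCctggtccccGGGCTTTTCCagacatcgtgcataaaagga
Il6 (chr5:30013050-30013099, plus strand): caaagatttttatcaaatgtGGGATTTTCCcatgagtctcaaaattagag

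Components of the NF-κB pathway changed mostly below the 2-fold limit. Of 32 tested regulators of NF-κB and of mRNA decay, 1 was lowered, Tnip3, at a mean of 6.67 counts (3.12%, against 1.04% of all genes). None was raised. At the adjusted p alone 12 fell and 4 rose, where 9.57% and 8.12% of all genes did. The subunit genes Relb (-0.72), Nfkb2 (-0.41) and Nfkb1 (-0.19) fell, and Rela (-0.15) did not pass. The adhesion molecules Vcam1 (-0.70 ± 0.05) and Icam1 (-0.46 ± 0.06), both bound by leukocytes, fell in all 3 Dex libraries. Zfp36, which encodes the mRNA-destabilising protein tristetraprolin, rose by 0.30 on the log2 scale.

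Immediate early transcription factors were lower in part. Of 33 tested AP-1 and immediate early factors, 9.09% were lowered and 6.06% raised, against 1.04% and 1.5% of all genes. The 3 lowered were Egr3 (-1.24 ± 0.13), Nr4a1 (-1.16 ± 0.11) and Egr2 (-1.04 ± 0.10), and the 2 raised were the Krüppel-like factors Klf15 (2.35 ± 0.15) and Klf9. The AP-1 subunits Jun (-0.25) and Junb (-0.31) fell by less, and Fos went from 15.1 to 17.9 CPM to 18.0 to 18.8 CPM without passing (adjusted p = 0.424). Of 25 tested brakes on MAP kinase signalling, 14 fell and 5 rose at the adjusted p alone, where 9.57% and 8.12% of all genes did, and Errfi1 was the only one called. Dusp1 was among the 5 that rose, whereas Dusp4 (-0.68), Dusp10 (-0.53) and Spry1 (-0.62) fell.

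Enzymes and receptors of prostaglandins and oxysterols moved in both directions. Ptgs2, the inducible cyclooxygenase COX-2, fell from 54.8, 60.1 and 62.2 CPM to 22.8, 16.1 and 19.3 CPM (-1.60 ± 0.16). Ch25h, which makes an oxysterol that restrains cholesterol synthesis, fell from 10.3 to 12.3 CPM to 2.35 to 2.77 CPM (-2.18 ± 0.13). Pla2g4a, the phospholipase that releases arachidonic acid (-0.78), and the prostaglandin E2 receptor Ptger4 (-0.79) fell, Hpgd, which inactivates prostaglandins, rose (0.86), and the receptor gene Ptger3 was raised (1.34 ± 0.30). Over the 24 tested members, 1 was raised (4.17%) and 2 were lowered (8.33%), against 1.5% and 1.04% of all genes, and the median log2 fold change was -0.11.

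Of 63 tested matrix genes, 1 was raised (1.59%) and 2 were lowered (3.17%), against 1.5% and 1.04% of all genes, with a median of -0.06. Has2, the main hyaluronan synthase of fibroblasts, fell from 58.7, 58.7 and 58.8 CPM to 19.3, 16.9 and 15.2 CPM (-1.78 ± 0.17), and Has1 was lowered from at most 0.981 CPM. Ccn2, a matricellular protein also called CTGF, rose from 444 to 465 CPM to 1031 to 1139 CPM (1.25 ± 0.12). Vcan, a hyaluronan-binding proteoglycan (0.93), and Lox, which cross-links collagen (0.60), rose below the limit, and the collagen genes Col1a1 (-0.31), Col1a2 (-0.16) and Col3a1 (-0.25) did not pass. Among 45 proteases and inhibitors, Adamts1 (1.29 ± 0.09) and Timp4 (2.19 ± 0.21) were raised and Mmp10, Adamts16 and Mmp9 were lowered. These are 4.44% raised and 6.67% lowered, against 1.5% and 1.04% of all genes. At the adjusted p alone 17 members fell and 5 rose, where 9.57% and 8.12% of all genes did. Timp3, an inhibitor of metalloproteinases, fell from 1454 to 1487 CPM to 789 to 805 CPM (-0.88 ± 0.07). Spon2, a secreted matrix protein, fell from 7.89 to 9.30 CPM to 1.71 to 1.98 CPM (-2.19 ± 0.27), and Tnfrsf11b, which encodes osteoprotegerin, from 47.4 to 50.6 CPM to 14.0 to 15.9 CPM (-1.74 ± 0.18).

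Among 40 genes of fuel use and of brakes on insulin and mTOR signalling, 5 were raised (12.5%) and 1 was lowered (2.5%), against 1.5% and 1.04% of all genes. Pdk4 led the group, followed by Klf15, a factor of amino acid and fat metabolism that rose from 2.31 to 3.35 CPM to 14.5 to 15.0 CPM. Glul, the glutamine synthetase (1.54 ± 0.15), Trim63 and Sesn1 (1.17 ± 0.12) were the other raised members. Irs2 and Pik3r1, both in the insulin signal, rose by 0.89 and 0.85 below the limit. Foxo1 (-0.44) and Sesn3 (-0.61) fell while Foxo3 (0.51) rose, so related genes did not move together.

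Metallothioneins were the raised members of the metal and redox list. All 4 mouse metallothionein genes tested were raised, Mt2, Mt1, Mt3 (1.61 ± 0.27) and Mt4, the last from a mean of 4.5 counts and with overlapping groups, and no other of the 25 tested genes was called. The raised share was 16%, against 1.5% of all genes. At the adjusted p alone 9 members rose and 8 fell, where 8.12% and 9.57% of all genes did, with a median of -0.02 over the list. Below the limit Gpx3 (0.63), a glutathione peroxidase, and Fth1 (0.46), a ferritin subunit, rose, and the redox enzymes Nqo1 (-0.42), Hmox1 (-0.37) and Gclm (-0.44) fell. How reads shared between near-identical genes were counted was not stated beyond the use of unique mappings, so members of such families, Aldh1a1 and Aldh1a7 included, are less certain than single genes.

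In retinoic acid and aldehyde metabolism, 4 of 29 tested genes were raised (13.8%, against 1.5% of all genes) and 1 was lowered (3.45%, against 1.04%). Aldh1a7 and its close relative Aldh1a1, which makes retinoic acid, rose, the latter from 3.96 to 4.50 CPM to 22.4 to 27.3 CPM (2.59 ± 0.14). Adh1, an alcohol dehydrogenase, was raised (1.26 ± 0.11), as was Aldh3a1 (1.05 ± 0.21). Aldh1a3, another retinaldehyde dehydrogenase, fell from 9.02 to 11.4 CPM to 2.34 to 3.65 CPM (-1.76 ± 0.15). Cyp26b1, which degrades retinoic acid (0.83), and Dhrs3 (0.78) rose, whereas Rdh10 (-0.71) and Crabp2 (-0.79) fell.

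The circadian clock list had 3 raised members of 24 (12.5%, against 1.5% of all genes). Per2 rose from 3.79, 5.00 and 3.93 CPM to 21.0, 21.7 and 21.8 CPM (2.34 ± 0.12) and Per1 from 21.1 to 25.5 CPM to 77.8 to 86.7 CPM (1.82 ± 0.10); both encode repressors of the clock. Hlf was raised from a mean of 44.8 counts (1.04 ± 0.32). Cry1 (0.80), Cry2 (0.46) and Nfil3 (0.76) rose below the limit, and Arntl, which encodes the activator BMAL1 (-0.52), and Nr1d1 (-0.73) fell, while Clock (-0.04) did not pass.

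Genes of adipogenesis moved in both directions. Of 38 tested, 6 were raised (15.8%) and 3 lowered (7.89%), against 1.5% and 1.04% of all genes. Early regulators rose, Cebpd from 18.6 to 23.8 CPM to 40.4 to 53.4 CPM (1.21 ± 0.17) and Klf15, and the fatty acid carrier Fabp4 rose from 11.0 to 11.9 CPM to 32.5 to 35.2 CPM (1.58 ± 0.09). The master regulators Pparg (-0.05) and Cebpa (-0.02) did not pass. Lowered were Zfp423, a factor of preadipocyte commitment (-1.03 ± 0.18), Angptl4, and the lipid droplet gene Plin1, from at most 1.05 CPM. Zbtb16 and Klf9 are on this list and on the others named above, so the lists are not separate sets.

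Signals of growth factors, hormones and vessels changed one by one. Tgfa, a ligand of the EGF receptor, rose from 2.47 to 2.63 CPM to 9.61 to 11.7 CPM (2.06 ± 0.14), and Areg, another such ligand, was lowered (-1.27 ± 0.39). The vessel growth factors Vegfc (0.94) and Vegfd (0.92) and the ligand Gas6 (0.90) rose below the limit, while Hgf (-0.98) and Vegfa (-0.44) fell, in a list of 48 with 11 rising and 17 falling at the adjusted p alone, where 8.12% and 9.57% of all genes did. Of 62 genes controlling TGF-β, BMP and Wnt signals, 3 were lowered (4.84%, against 1.04% of all genes) and none was raised. The lowered genes were Inhba, the subunit of activin A (-1.11 ± 0.09), Sfrp4 and Wnt5b, and the activin antagonist Fst rose below the limit (0.93). In the list of cyclic AMP, G-protein and sphingosine-1-phosphate signalling, 5 of 47 were raised (10.6%, against 1.5% of all genes), among them the adrenergic receptor Adra2a (1.33 ± 0.21), Sphk1, which makes sphingosine-1-phosphate (1.44 ± 0.08), and Edn1, the vasoconstrictor endothelin (1.78 ± 0.21). Its lowered members were the phosphodiesterases Pde4b (-1.60 ± 0.11) and Pde8b (-1.10 ± 0.12), a share of 4.26%, against 1.04% of all genes. The receptors S1pr1 (-0.91), Ednra (-0.85) and Ednrb (-0.85) fell, opposite to their ligand's gene or enzyme.

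In the remaining lists 1 or 2 members were called in a direction where any were, a share of 2.04% to 6.45%, against 1.5% raised and 1.04% lowered of all genes. Myocd, a coactivator of smooth muscle genes, rose from 0.664 to 0.913 CPM to 4.56 to 7.08 CPM (2.82 ± 0.24). It was the only called gene of 37 in the contractile cytoskeleton. At the adjusted p alone 13 of that list rose and 4 fell, where 8.12% and 9.57% of all genes did, and Acta2 rose by 0.19. Cdkn1c, an inhibitor of cyclin-dependent kinases, was the only called gene of 49 in the cell cycle (1.09 ± 0.18), and the proliferation markers Mki67 (0.02) and Top2a (-0.05) did not pass. Of 25 heat shock and unfolded protein genes only Hspb1 was called (1.36 ± 0.14), and of 28 genes of GR and its partners only Fkbp5. Complement and acute phase genes had 2 raised and 1 lowered of 37. Ion transport and gap junction genes had 1 raised, Sgk1, and 2 lowered of 31, of which Gjb2, encoding a connexin, fell from 52.7 to 60.8 CPM to 18.2 to 22.1 CPM (-1.56 ± 0.08). Lrrtm2, which encodes a synaptic adhesion protein, was lowered outside the lists from 2.61 to 3.48 CPM to 0.565 to 1.08 CPM (-1.88 ± 0.26). Across the 22 lists, 80 of 775 tested genes were called, 42 raised and 38 lowered, beside 1.5% raised and 1.04% lowered of all genes. The other 313 called genes were in none of the lists.

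**Figure D4:**
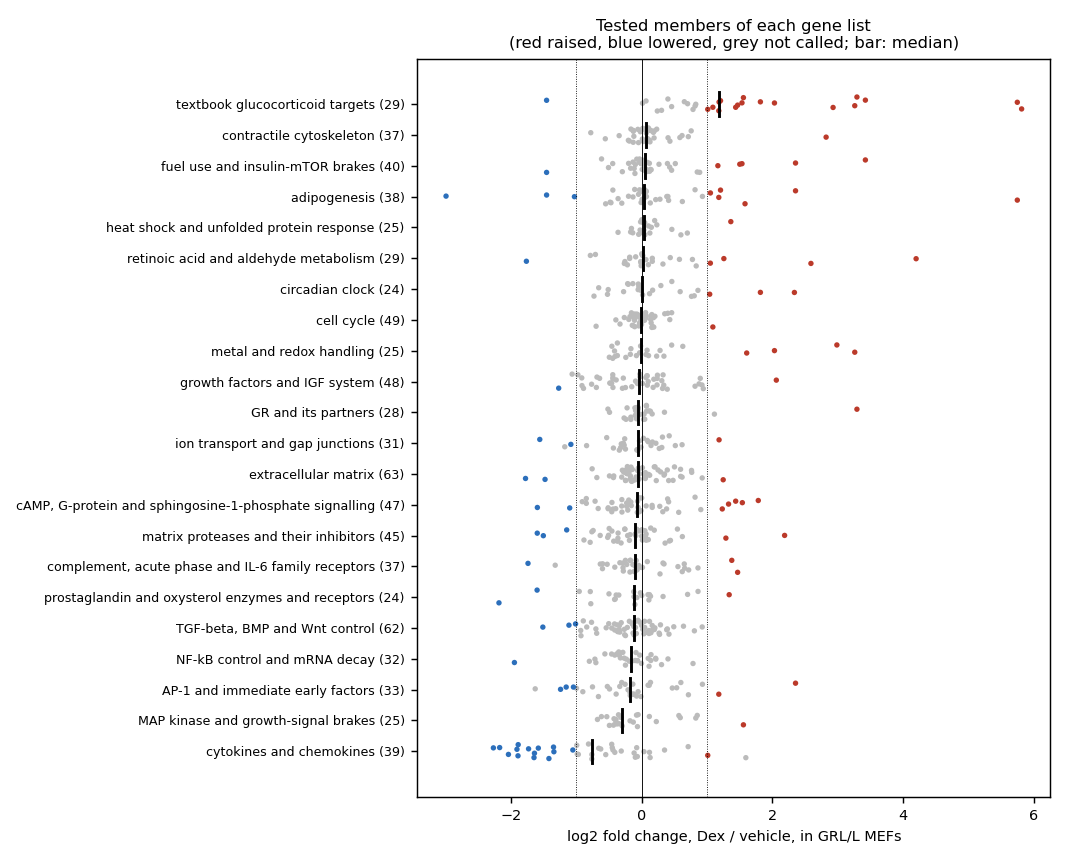
Log2 fold change of Dex against vehicle in GRL/L for the tested members of 22 gene lists (number tested in brackets), ordered by the median, which is drawn as a bar; dotted lines mark 1 and -1. The textbook glucocorticoid targets (median 1.18) and the cytokines and chemokines (median -0.76) lie apart from the other lists, whose medians are between -0.30 and 0.07.

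The GRL/L response was then set against cells without a functional receptor. In GR-/- none of the 15489 genes passed an adjusted p of at most 0.05 (0% called), and the smallest adjusted p among the 393 genes called in GRL/L was 0.677. Their unadjusted p was under 0.05 in GR-/- for 18 genes (4.58%), against 5.08% of all genes tested. Among the named genes, Fkbp5 was at 56.6 to 63.1 CPM with vehicle and 55.6 to 60.9 CPM with Dex in GR-/-, and Ccl2 at 38.2 to 54.2 and 41.9 to 44.7 CPM, with overlapping groups in both cases. GR-/- cells were profiled in run 1, at 15761021 to 17864131 counts.

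Against GRwt/wt, the comparison within run 2 comes first, because the runs of GRwt/wt themselves differed. For the genes raised in GRL/L, the median log2 fold change was 1.56 in GRL/L, 1.82 in GRwt/wt of run 2 and 1.08 in GRwt/wt of run 1. For the lowered genes it was -1.37, -1.47 and -0.63. Taken by replicate number, as Dex minus vehicle, the GRL/L medians were 1.34, 1.49 and 1.49 for raised genes, below all 3 values of run 2 (1.73 to 1.77) and above all 3 of run 1 (0.94 to 1.01). The lowered genes gave -1.26, -1.27 and -1.16 in GRL/L, within the -1.35 to -1.16 of run 2. The genes were chosen by their GRL/L values, so these medians are descriptions. Of the 232 raised genes, 210 also rose in GRwt/wt of run 2 at the adjusted p, where 14.9% of all tested genes rose, and of the 161 lowered genes 120 fell there, where 16.7% of all genes fell. In GRwt/wt of run 1 the corresponding numbers were 133 and 56. The shares of all tested genes that rose or fell there are not given, so these numbers do not measure agreement. The GRwt/wt libraries held 15280166 to 18458813 counts in run 1 and 23575462 to 25587265 in run 2. In run 2 the share passing in the same direction was 98.9% for called genes averaging at least 50 counts and 70.5% for the others. The shares of all genes in these count classes are not given either.

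The difference in response between GRL/L and GRwt/wt was tested as an interaction. Within run 2 the log2 fold change was lower in GRL/L for 186 genes (1.2%) and higher for 100 (0.646%). Among the 232 genes raised in GRL/L it was lower for 32 and higher for 0, and among the 161 lowered genes the fall was smaller for 14 and larger for 0. Against GRwt/wt of run 1 the picture turned: 339 genes were lower (2.19%) and 242 higher (1.56%) in GRL/L, and among the raised genes 4 were lower and 42 higher. With both runs of GRwt/wt in one term, the design of the study, 86 genes were lower (0.555%) and 29 higher (0.187%), among them 8 and 2 of the raised genes. These counts were sensitive to single libraries: without any 1 of the 6 GRL/L libraries 12 to 17 genes were higher, and 55 were lower without vehicle replicate 1 and 53 without vehicle replicate 2. The count of responses that differ thus rests on which GRwt/wt libraries serve as the reference, and run and the batch of GRwt/wt cultures cannot be told apart.

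**Figure D5:**
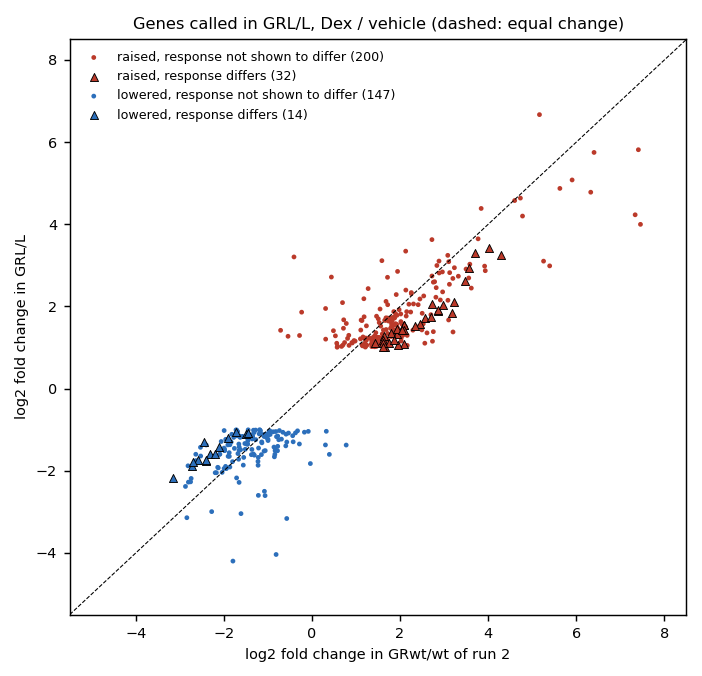
Log2 fold change in GRL/L (vertical) against that in GRwt/wt of run 2 (horizontal) for the 393 genes called in GRL/L, with equal change on the dashed line. Triangles mark the 32 raised and 14 lowered genes whose response differed by the interaction test, all of them with the smaller change in GRL/L; for circles no difference was shown.

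Several of the classical targets responded less than GRwt/wt within run 2 and more than GRwt/wt of run 1. Mt2 reached 649 to 682 CPM with Dex in GRL/L and 1166 to 1420 CPM in GRwt/wt of run 2, from vehicle levels of 65.9 to 71.5 and 61.6 to 69.5 CPM (difference in log2 fold change -1.03, adjusted p = 5.16e-07), but no difference was shown against run 1 (0.01). Tsc22d3 reached 252 to 281 CPM in GRL/L and 377 to 438 CPM in GRwt/wt (-0.63, adjusted p = 8.21e-06). Fkbp5 differed by -0.40 (adjusted p = 0.0127), Pdk4 by -0.59 and Dusp1 by -0.59 from run 2. For none of these genes did the Dex libraries of the genotypes overlap within run 2. For Pdk4 they were close, 81.5 to 87.9 CPM in GRL/L and 88.3 to 96.7 CPM in GRwt/wt. Its vehicle level was higher in GRL/L, 7.72 to 8.38 against 5.47 to 6.02 CPM. The vehicle level of Dusp1 was also higher in GRL/L, 11.9 to 13.3 against 10.7 to 11.2 CPM. Against GRwt/wt of run 1 the sign turned and passed the test for Tsc22d3 (1.09, adjusted p = 1.77e-10), Pdk4 (1.58), Fkbp5 (0.72) and Dusp1 (0.49). Among lowered genes, Has2 fell to 15.2 to 19.3 CPM in GRL/L and from a higher vehicle level to 12.7 to 14.5 CPM in GRwt/wt (difference 0.91, adjusted p = 1.21e-06). Ccl2 (0.86), Cxcl5 (0.83), Ch25h (0.98), Tnfrsf11b (0.66) and Aldh1a3 (0.64) also fell less than in run 2. Against run 1 the fall was larger in GRL/L for Cxcl5 (-1.82, adjusted p = 3.24e-07), Tnfrsf11b (-0.70) and Ccl2 (-0.59), and no difference was shown for Has2 (-0.27), Ch25h (0.25) or Aldh1a3 (-0.17). Within run 2 no difference was shown for Zbtb16 (-0.65, adjusted p = 0.592), Tent5b (-0.29) or Angptl7 (0.16). With both runs of GRwt/wt together, none of the named genes of this paragraph passed the interaction test.

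With both runs of GRwt/wt in one term, the genes with the smallest adjusted p of the interaction were not those of the preceding paragraph. This test uses a GRwt/wt response averaged over the runs, so it favours genes that differ from both runs in the same direction. Lower in GRL/L were Dennd2a, an exchange factor for Rab proteins (0.52 in GRL/L, 1.03 in run 2 and 1.06 in run 1 of GRwt/wt), Col11a1, a fibrillar collagen (0.76, 1.36 and 1.88), Suox, the sulfite oxidase (0.44, 1.09 and 2.00), Ampd3, an AMP deaminase (0.34, 1.23 and 1.43), and Sdc4, a heparan sulfate proteoglycan (0.68, 1.14 and 1.66). Each of these rose in GRL/L at the adjusted p, but below the 2-fold limit, and differed from GRwt/wt of run 2 as well. Ampd3 did not pass in GRL/L without vehicle replicate 2 (adjusted p = 0.125), vehicle replicate 3 (0.193), Dex replicate 1 (0.211) or Dex replicate 3 (0.0630), and Suox did not pass without vehicle replicate 1 (0.0526) or Dex replicate 1 (0.0591). Ampd3 also did not pass with the libraries of run 2 alone (0.0850), nor Suox under a block for the replicate number (0.0539).

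Higher in GRL/L were Lars2, Mir6236, Gm15564, Ankrd28 and Kcnj15. Lars2, a mitochondrial leucyl-tRNA synthetase, was at 81.6, 91.1 and 94.3 CPM with vehicle and 153, 144 and 113 CPM with Dex in GRL/L, while in GRwt/wt of run 2 it went from 88.3, 120 and 96.5 to 69.5, 72.1 and 66.4 CPM. Mir6236 and Gm15564 moved the same way (0.72 and 0.64 in GRL/L, -0.59 and -0.69 in GRwt/wt of run 2). Rows of these 3 names are known to collect reads from ribosomal RNA, and the part of such reads in this result was not tested. Ankrd28, a regulatory subunit of a protein phosphatase, did not pass in GRL/L (-0.10) and fell in GRwt/wt (-0.50 in run 2). Kcnj15, a potassium channel, rose from 2.81 to 2.97 CPM to 8.77 to 10.3 CPM in GRL/L (1.75 ± 0.16), against 1.18 in run 2 and 0.31 in run 1 of GRwt/wt, and within run 2 its difference did not pass (0.57, adjusted p = 0.118).

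Of the genes called in GRL/L, 112 were not called in GRwt/wt over both runs, 45 raised and 67 lowered. Among them 51 changed in the same direction in GRwt/wt at the adjusted p and 9 had the opposite sign. The response differed by the interaction test for 3 of the 112, Gm23935, Gm44274 and Kcnj15, and for 0 against GRwt/wt of run 2.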

How the data were processed

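Whole-number counts of reads per gene, deposited by the authors as 1 table for 36 libraries, were the only unit used. Per the labels and the methods, libraries were TruSeq preparations of total RNA sequenced on a NextSeq, and reads were mapped to mm10 with HISAT2 2.1.0 and uniquely mapped reads were counted with featureCounts 2.0.0. The annotation and strand setting are not given in the sources used here.

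Groups came from the genotype and treatment labels, and columns were matched to samples by name. Genes were filtered with filterByExpr (15489 of 55487 kept), scaled by TMM and tested with edgeR 4.0.16 (quasi-likelihood F test, group plus run, all 36 libraries) with Benjamini-Hochberg adjustment over all genes tested. SE was the log2 fold change over the root of F and is approximate. CPM used TMM library sizes. A second model gave GRwt/wt a term per run. Named genes were the 10 largest changes in each direction with at least 50 counts on average and separate groups, genes of the study's text and the 5 strongest interactions in each direction. The genes, lists and tests were chosen with earlier results of these data known. P-values rest on the spread between libraries within groups, estimated over all 36 libraries and not from the 3 GRL/L libraries of a treatment alone. That each library of a group is a separate culture rests on the study's methods and not on the labels. In the main model both runs of GRwt/wt share a Dex response, so a difference in response between the runs adds to this spread. Alternatives included DESeq2 1.42.0, other filters and leaving out each library.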

Additional observations from a re-analysis of the deposited data

Results flagged for a closer look

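The results given here differed in Dex response between GRL/L and GRwt/wt by the interaction test of edgeR, each as the log2 fold change in GRL/L minus that in GRwt/wt, and no explanation was tested. Against GRwt/wt of run 2 Mt2 (-1.03), Tsc22d3 (-0.63), Pdk4 (-0.59), Dusp1 (-0.59) and Fkbp5 (-0.40) had lower values. Against run 1 the differences were 0.01 for Mt2, where none was shown, and 1.09 for Tsc22d3, 1.58 for Pdk4, 0.49 for Dusp1 and 0.72 for Fkbp5, all of which passed in the opposite direction. The lowered genes Ch25h (0.98), Has2 (0.91), Ccl2 (0.86), Cxcl5 (0.83), Tnfrsf11b (0.66) and Aldh1a3 (0.64) fell less in GRL/L than in run 2, whereas Cxcl5 (-1.82), Tnfrsf11b (-0.70) and Ccl2 (-0.59) fell more than in run 1. GRL/L was profiled in run 2 only, so against run 1 the genotype and the run cannot be told apart.

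Against both runs of GRwt/wt, the response was lower in GRL/L for Suox (-1.10), Ampd3 (-0.99), Col11a1 (-0.85), Sdc4 (-0.71) and Dennd2a (-0.53), and higher for Kcnj15 (1.07), Gm15564 (1.01), Mir6236 (0.99), Lars2 (0.93) and Ankrd28 (0.42). These 10 genes were named for the strength of this test. No outlier test was applied to groups of 3 libraries.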

How the results depend on the processing

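The 232 raised and 161 lowered genes became 1258 and 1482 with no fold limit, 90 and 22 with the fold tested against the limit, and 91 and 39 with at least 10 counts in every library. They were 225 and 142 by DESeq2 and stayed within 1.5 times of the main counts under the other alternatives run. Without each GRL/L library in turn they were 213 to 236 and 137 to 165. The 86 lower and 29 higher responses against GRwt/wt became 210 and 78 with no filter, 134 and 65 with run 2 alone, 392 and 256 with GRwt/wt of run 1 alone, and, with a term per run added after seeing the data, 186 and 100 against run 2 and 339 and 242 against run 1. Without each GRL/L library they were 53 to 83 and 12 to 17. Under a block for the replicate number they were 53 and 11, beside 226 raised and 149 lowered genes. The correlations of same-numbered libraries (-0.161, -0.111 and -0.0979) gave no sign that the numbers pair cultures. Zbtb16, Map7d2, Hif3a, Sult1a1, Aldh1a7, Angptl7, Cxcr6, Ch25h and Lrrtm2 were not tested with at least 10 counts in every library. Of 453 values of 33 named genes under alternatives, 445 kept direction and stayed on the same side of the adjusted p limit. The limit on the fold change was not applied to these values. The other 8 no longer passed the adjusted p (Ampd3 in 5, Suox in 3). The cause of these shifts was not tested, beyond the fewer or more genes and libraries that each alternative uses. Depth limits the 207 called genes with under 50 counts on average.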

Other observations

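Called genes outside the lists included small families and ligand-receptor groups, chosen here after their values were seen. Only called members are named, so relatives that were not called are not shown. Adm, the vasodilator adrenomedullin, was raised in GRL/L by a log2 fold change of 1.55, together with Ramp1 (1.23) and Ramp2 (1.11), whose products are co-receptors of this peptide family, and Ace, the angiotensin-converting enzyme (1.90). The flavin monooxygenases Fmo1 (1.87) and Fmo2 (2.04), which oxidise drugs and amines, were raised. The membrane proteins Ms4a6b (1.92), Ms4a4d (1.43) and Ms4a6c (1.05), close relatives of one another, were raised too. Whether fibroblasts or the macrophages of the cultures expressed these Ms4a genes was not tested.

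On the lowered side were the semaphorins Sema5b (-1.60), Sema7a (-1.21) and Sema4d (-1.14), guidance signals of axons and immune cells, and the synaptic adhesion genes Lrrtm1 (-1.40) and Lrrtm3 (-1.01) beside Lrrtm2. Among transcription factors Thrb, a thyroid hormone receptor, was raised (1.58), and Ahr, the aryl hydrocarbon receptor (-1.19), and Runx1 (-1.17) were lowered.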
